A study of Homo sapiens with 12 samples.

Results

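RNAs encoded by the mitochondrial genome were followed through RNA immunoprecipitates of Argonaute 2 (AGO2), the protein that carries microRNAs to their targets. The members are 10 genes chosen by name, the 2 mitochondrial rRNAs (MT-RNR1 and MT-RNR2) and 8 mRNAs (MT-ND1, MT-ND2, MT-ND4, MT-ND5, MT-CO1, MT-CO2, MT-CO3 and MT-CYB), each found in exactly 1 of the 61782 rows of the expression tables. The cells were K562, a human erythroleukemia line, which per the methods of the study also carried an inducible C/EBPα fused to the estrogen receptor. They had been transduced with the lentiviral vector pLV-miR-143 or with pLV-control. For transduced cells the methods give puromycin selection or sorting by fluorescence, without saying which was used here. Each population was precipitated with an AGO2 antibody (AGO) or with unspecific immunoglobulin (IgG). The labels name 12 samples in 4 groups of 3 (control_IgG, control_AGO, miR143_IgG and miR143_AGO), and the values are 1 average FPKM per gene and group, that is fragments scaled by transcript length and library size. No difference below therefore has a replicate check, a standard deviation or a test.

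Mitochondrial DNA is a small circular genome in the matrix of the organelle. Its strands are transcribed into long polycistronic precursors, from which rRNAs, tRNAs and mRNAs are cut out. The rRNAs build the mitochondrial ribosome, and the mRNAs are translated on it into membrane subunits of the respiratory chain and ATP synthase. AGO2 works mainly in the cytosol, outside the inner mitochondrial membrane, whereas a cell lysate mixes all compartments. A difference between AGO and IgG is here a difference in the makeup of the precipitates, and binding in the living cell cannot be told apart from carry-over in the lysate.

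In both cell populations 9 of the 10 members were at least 2-fold lower in AGO than in IgG. Of all rows 36.2% were lower in control cells and 33.5% with miR-143. None of the members was 2-fold higher, where 34.5% of all rows were in control cells and 26.6% with miR-143. Among rows that averaged 50 FPKM or more, 44.6% and 46% were lower, and 21.6% and 20.1% were higher. The 2 rRNAs were the lowest, 18.4 to 25.6 times lower in control cells and 27.2 to 40.1 times lower with miR-143 by plain ratios of FPKM. The mRNAs were 1.61 to 7.04 times lower in control cells and 1.79 to 10.7 times lower with miR-143, with MT-CYB the nearest to IgG in both. These directions are those of the deposited values. With all groups set to the same total of FPKM times length, a scaling added after the values had been seen, both rRNAs stayed lower in AGO in both populations, but only 5 of the 10 members were below 0 in control cells and 9 with miR-143.

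All members lie on chromosome M (GRCh38, GENCODE 29) on the plus strand and have no introns. MT-RNR1, the small-subunit rRNA, spans chrM:648-1601, and MT-RNR2, the large-subunit rRNA, spans chrM:1671-3229. The mRNAs follow as MT-ND1 (chrM:3307-4262), MT-ND2 (chrM:4470-5511), MT-CO1 (chrM:5904-7445), MT-CO2 (chrM:7586-8269), MT-CO3 (chrM:9207-9990), MT-ND4 (chrM:10760-12137), MT-ND5 (chrM:12337-14148) and MT-CYB (chrM:14747-15887). The rows of 2 members are joined with neighbours that overlap them, MT-CO3 with MT-ATP6 and MT-ATP8, and MT-ND4 with MT-ND4L. Their values cannot be assigned to 1 gene, and they are called the MT-CO3 row and the MT-ND4 row. The overlap is 46 bases between MT-ATP8 and MT-ATP6 (chrM:8527-8572), 1 base between MT-ATP6 and MT-CO3 (chrM:9207-9207) and 7 bases between MT-ND4L and MT-ND4 (chrM:10760-10766). The windows of 30 bases show these overlaps, in which the start codon of the downstream gene, in capitals, lies within or at the end of the upstream gene (plus strand, 5′ to 3′, chrM:8514-8543, chrM:9194-9223 and chrM:10747-10776).
MT-ATP8 to MT-ATP6: cctgagaaccaaaATGaacgaaaatctgtt
MT-ATP6 to MT-CO3: acgacaacacataATGacccaccaatcaca
MT-ND4L to MT-ND4: taaacctactccaATGctaaaactaatcgt

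Sites for the overexpressed miRNA were searched in all 15 mitochondrial rRNAs and mRNAs, because the study asked what miR-143 brings to AGO2. The 8mer TCATCTCA was searched together with the shorter motifs CATCTCA (7mer-A1) and TCATCTC (7mer-m8). The 8mer contains both others, and each place was counted once, under its longest motif. A match was found in 4 of the 15 RNAs, and 0 of them held a match on the opposite strand. Capitals mark the seed (bases 2 to 8) of hsa-miR-143-3p, from RefSeq (GRCh38.p14), and the matched motif in the mitochondrial RNAs, which for a 7mer-A1 pairs with bases 2 to 7 and ends in an A (chrM:3183-3190, chrM:4883-4889, chrM:7747-7753 and chrM:10508-10514).
hsa-miR-143-3p: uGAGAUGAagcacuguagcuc
MT-RNR2: cgtaaatgataTCATCTCAacttagtatta
MT-ND2: aaactagccccCATCTCAatcatataccaa
MT-CO2: actaatactaaCATCTCAgacgctcaggaa
MT-ND4L: ctagcatttacCATCTCActtctaggaata
The 8mer of MT-RNR2 lies at bases 1513 to 1520 of this rRNA of 1559 bases. Among 4063 protein-coding transcripts of like length (1404 to 1714 bases, 1 per gene), 3.42% held the 8mer in the sense direction and 3.22% on the opposite strand, and 21.9% and 24.96% held any of the motifs. The lengths were matched to MT-RNR2 alone, so these shares are no background for the 4 of 15 RNAs, which include MT-ND4L of 297 bases. A match in letters is a description of the sequence and shows no binding.

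The levels in the precipitates are given for the rRNAs first. MT-RNR1 was at 141972 FPKM with IgG and 5543 FPKM with AGO in control cells, and at 111265 and 2775 FPKM in the miR-143 population. MT-RNR2 was at 178102, 9670, 117578 and 4316 FPKM, listed like all such sets of 4 values in the order IgG and AGO of control cells, then IgG and AGO of miR-143 cells. Both IgG averages thus stood far above both AGO averages, and within each antibody the miR-143 average was the lower. MT-RNR2 ranked 6th and MT-RNR1 7th among all rows in either IgG group, and they ranked 7th and 8th in control_AGO and 8th and 10th in miR143_AGO. Rows named as 5S (17) or 5.8S (14) rRNA of the cytosol, some of them pseudogenes, were listed at 0 in all groups, and 0 rows were named as 18S, 28S or 45S. The labels state that rRNA was depleted with a Ribo-Zero Gold kit before sequencing, while the methods name a TruSeq RNA kit and no depletion. The part of this step in the rRNA values was not tested.

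The mRNAs of cytochrome c oxidase, the last enzyme of the respiratory chain, held the highest 3 places of the mRNA rows in all groups but miR143_AGO, where MT-CYB stood above MT-CO2. The MT-CO3 row, which also holds the ATP synthase subunits encoded by MT-ATP6 and MT-ATP8, was at 2689 FPKM with IgG and 835 FPKM with AGO in control cells, and at 3344 and 608 FPKM in the miR-143 population. MT-CO1, which encodes the catalytic subunit, was at 1408, 445, 1905 and 358 FPKM. MT-CO2, whose product takes electrons from cytochrome c, was at 1272, 207, 1159 and 126 FPKM. For each of these rows both IgG averages were above both AGO averages.

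The mRNAs of complex I (NADH dehydrogenase), which feeds electrons from NADH into the chain, were each below those of cytochrome c oxidase in every group. The MT-ND4 row was at 769 FPKM with IgG and 109 FPKM with AGO in control cells, and at 575 and 63.6 FPKM in the miR-143 population. MT-ND5 was at 151, 26.1, 149 and 20.7 FPKM, with nearly the same level in the mock precipitates of both populations. MT-ND1 was at 102, 35.99, 149.5 and 19.4 FPKM, and MT-ND2 at 94.9, 21.4, 137 and 12.8 FPKM. For MT-ND1 and MT-ND2 the IgG average was higher and the AGO average lower in miR-143 than in control cells, so that the gap was wider there. MT-CYB, cytochrome b of complex III, was at 319.98, 199, 281 and 157 FPKM and was the only member within 2-fold between AGO and IgG.

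**Figure D1:**
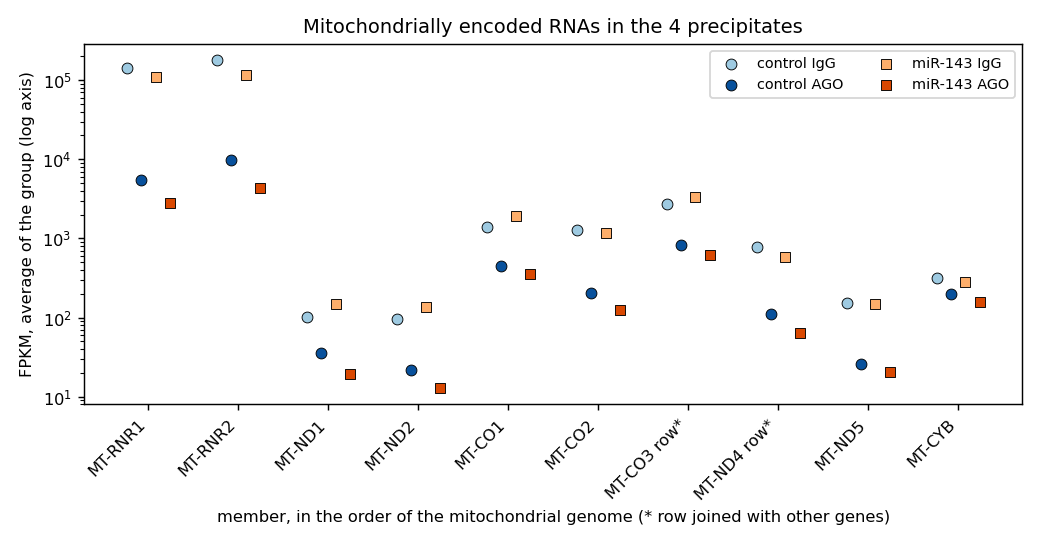
Average FPKM (log axis) of the 10 members in the order of the mitochondrial genome, with 1 point per group (circles control cells, squares miR-143 cells, pale IgG, dark AGO). On the deposited scale the pale points stand above the dark ones for every member, by the most for MT-RNR1 and MT-RNR2 and by the least for MT-CYB, but with the same total of FPKM times length 5 mRNA rows turn in control cells and MT-CYB with miR-143.

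To compare AGO with IgG on 1 scale, the log2 ratio of (FPKM + 1) was set beside that of all rows with at least 1 FPKM in either group. In control cells the median log2 ratio was −4.44 over the 2 rRNAs and −1.89 over the 8 mRNA rows, against −0.19 over the 9919 rows compared. In miR-143 cells it was −5.05 over the rRNAs and −2.84 over the mRNA rows, against −0.22 over 10643 rows. The 9 of 10 members at least 2-fold lower stand beside 36.2% of all rows in control cells and 33.5% with miR-143. Among rows that averaged 50 FPKM or more, which are closer to the members in level, 44.6% and 46% were 2-fold lower.

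The study used a 10-fold threshold for higher AGO2 binding in miR-143 than in control cells. Between the AGO precipitates of these populations 0 members passed it in either direction, beside 0.286% of all rows higher and 0.745% lower. When the same threshold was set on AGO against IgG, 2 members were lower in control cells and 3 with miR-143, beside 4.98% and 3.67% of all rows. Among rows that averaged 50 FPKM or more, 8.65% and 8.42% were. The members were MT-RNR1 (log2 ratios −4.68 and −5.32), MT-RNR2 (−4.20 and −4.77) and, with miR-143 and just past the threshold, MT-ND2 (−3.32). MT-ND2 was inside it with the same median (−3.06), upper quartile (−2.86) or sum of nuclear coding rows (−2.86), and with the same total of FPKM times length 0 members passed it in either population. A ratio as low as that of MT-RNR1 was seen in 0.978% of rows in control cells and in 0.413% with miR-143. For MT-CYB, 42.3% and 37.1% of rows were as low or lower, so that this mRNA stood near the middle of the distribution.

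The order of the mRNA rows was partly shared between the populations. In control cells the MT-ND4 row (−2.80), MT-CO2 (−2.61) and MT-ND5 (−2.48) had the lowest log2 ratios, followed by MT-ND2 (−2.10), the MT-CO3 row (−1.69), MT-CO1 (−1.66), MT-ND1 (−1.47) and MT-CYB (−0.68). In miR-143 cells MT-ND2 (−3.32), MT-CO2 (−3.20) and the MT-ND4 row (−3.16) were lowest, followed by MT-ND1 (−2.88), MT-ND5 (−2.79), the MT-CO3 row (−2.46), MT-CO1 (−2.41) and MT-CYB (−0.84). MT-CO2 and the MT-ND4 row were among the lowest 3 and MT-CYB was last in both, while MT-ND1 moved from 7th to 4th place. Without replicates it cannot be said which neighbours in these orders differ.

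Over the 8 mRNA rows, which come from the same 4 averages, the ratios of both populations had a Spearman correlation of 0.667 and a Pearson correlation of 0.834. GC content of the gene, which spans only 43.0% to 47.7%, had a Spearman correlation of 0.714 with the ratio in control cells and of 0.595 with miR-143. Gene length gave −0.0238 and 0.357, and position along the genome −0.119 and 0.476. These are descriptions of 8 rows that share their libraries.

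**Figure D2:**
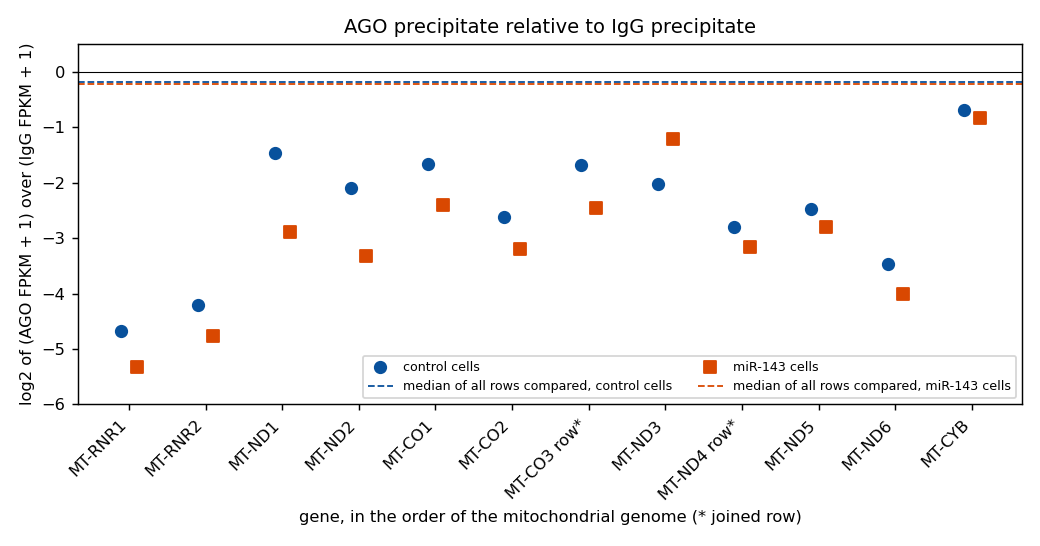
Log2 of (AGO FPKM + 1) over (IgG FPKM + 1) for the 10 members and for MT-ND3 and MT-ND6, in the order of the mitochondrial genome (blue circles control cells, orange squares miR-143 cells). Dashed lines give the median of all rows compared (−0.19 and −0.22), and all points lie below them, from −5.32 for MT-RNR1 to −0.68 for MT-CYB. With the same total of FPKM times length the members move up by 2.15 and 2.06, which takes 5 mRNA rows above 0 in control cells and MT-CYB with miR-143.

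The ratio of rRNA to mRNA within a precipitate does not depend on how a library was scaled. The summed FPKM of the 2 rRNAs was 47.0 times that of the 8 mRNA rows in control_IgG and 8.10 times in control_AGO. It was 29.7 times in miR143_IgG and 5.196 times in miR143_AGO. The ratio was thus 5.81 times lower in AGO than in IgG in control cells and 5.72 times lower with miR-143, and both AGO values lay below both IgG values. The balance of the rRNAs differed as well, since MT-RNR2 was 1.25 and 1.06 times MT-RNR1 in the IgG groups of control and miR-143 cells and 1.74 and 1.56 times in the AGO groups.

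The mix of mRNAs differed less. The MT-CO3 row held 39.5%, 44.5%, 43.4% and 44.6% of the summed mRNA FPKM, and MT-CO1 held 20.7% to 26.2%. MT-CYB had a larger share in AGO, with 4.70% and 3.64% in the IgG groups of control and miR-143 cells and 10.6% and 11.5% in the AGO groups. MT-CO2 held 18.7% and 15.1% in IgG and 11.01% and 9.20% in AGO, and the MT-ND4 row 11.3% and 7.47% against 5.81% and 4.66%. By these shares MT-CYB stood 5th in both IgG groups, 4th in control_AGO and 3rd in miR143_AGO.

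**Figure D3:**
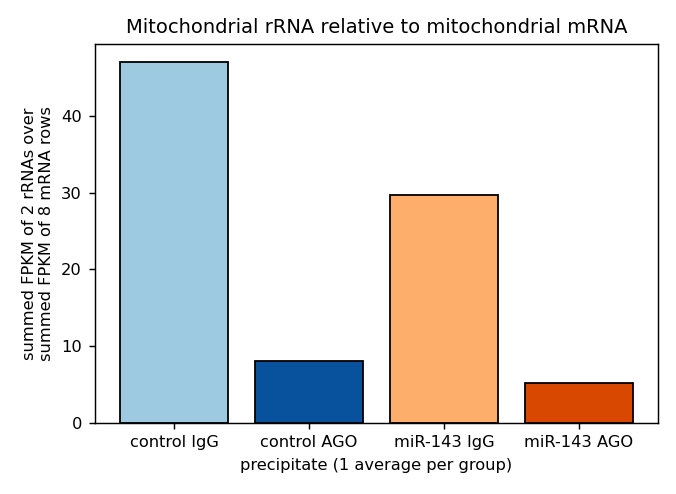
Summed FPKM of MT-RNR1 and MT-RNR2 over the summed FPKM of the 8 mRNA rows, 1 bar per group from the group averages and without error bars. The bars stand at 47.0 and 29.7 in the IgG precipitates and at 8.10 and 5.196 in the AGO precipitates.

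The members made up 11.5%, 4.64%, 9.11% and 2.06% of all FPKM. Most of this was rRNA, and the mRNA rows held 0.240%, 0.510%, 0.297% and 0.332%. By this measure the mRNA share was higher in AGO than in IgG in both populations, although each mRNA had a lower FPKM there. The summed FPKM was 2831020 and 2595870 in the IgG groups of control and miR-143 cells, and 368552 and 411417 in their AGO groups. Weighted by length, so that values follow fragments, the members took 36.5%, 8.86%, 29.7% and 4.71%. The length-weighted share of the mRNA rows was 0.823% with IgG and 1.04% with AGO in control cells, but 1.09% and 0.821% in the miR-143 population, so that the order of AGO and IgG turned there.

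FPKM times length would come near the full nominal size of a library if the lengths were those used in counting. Here they were mostly medians of annotated transcripts, known for 61.8% of rows, so that the total is rough. This total reached 116% of the nominal size under IgG in control cells and 101% under IgG with miR-143, but 26.0% and 24.1% under AGO. The part of the lengths in this gap was not tested. The deposited FPKM of AGO and IgG may therefore not be on the same scale, which bears on every level set across them and not on ratios within a precipitate. When the groups were set to the same sum of nuclear coding rows, log2 ratios of AGO over IgG moved up by 0.51 in control cells and 0.48 with miR-143, and all 10 members stayed below 0 in both. That shift is smaller than the gap in FPKM times length. With its total made equal, the log2 ratios moved up by 2.15 and 2.06, to −2.53 and −3.26 for MT-RNR1 and −2.05 and −2.70 for MT-RNR2. In control cells MT-CYB (1.46), MT-ND1 (0.64), MT-CO1 (0.49), the MT-CO3 row (0.46) and MT-ND2 (0.0022) were then above 0, and with miR-143 only MT-CYB was (1.22). Whether mitochondrial mRNAs were lower or higher in AGO than in IgG thus depends on the scale, and which scale is right was not tested.

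Next, miR-143 cells were compared with control cells. All 10 members were lower in miR143_AGO than in control_AGO, by 1.24 times (MT-CO1) to 2.24 times (MT-RNR2). Only MT-RNR2 was at least 2-fold lower (log2 ratio −1.16), beside 14.1% of all 9798 rows and 7.7% of rows that averaged 50 FPKM or more, and MT-RNR1 was just inside (−0.998). The members had a median of −0.71, against 0.17 over all rows. The MIR143 row alone took 118393 FPKM in miR143_AGO and 44781 FPKM in miR143_IgG, and was listed at 0 in control_AGO and control_IgG. Its part in the lower values was not tested. The log2 ratios moved by 0.01 with the same sum of nuclear coding rows, and by −0.18 with the same median, under which 3 members were at least 2-fold lower.

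In the mock precipitates 0 of the 10 members differed by 2-fold, beside 26.8% of all rows lower and 36.2% higher, and 12.9% and 10.9% of rows that averaged 50 FPKM or more. MT-ND1 (log2 ratio 0.55), MT-ND2 (0.53), MT-CO1 (0.44) and the MT-CO3 row (0.31) were higher in miR143_IgG. MT-ND5 was level (−0.01), and MT-CO2 (−0.13), MT-CYB (−0.19), MT-RNR1 (−0.35), the MT-ND4 row (−0.42) and MT-RNR2 (−0.60) were lower. With the same total of FPKM times length MT-ND5 (0.18), MT-CO2 (0.06) and MT-CYB (0.0037) were above 0. The ratio of AGO over IgG was accordingly lower in miR-143 than in control cells for all 10 members, with log2 differences of −0.15 (MT-CYB) to −1.41 (MT-ND1). It was at least 2-fold lower for MT-ND1 and MT-ND2, beside 33.5% of all rows and 16.7% of rows that averaged 50 FPKM or more, close to the 2 of 10 members.

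**Figure D4:**
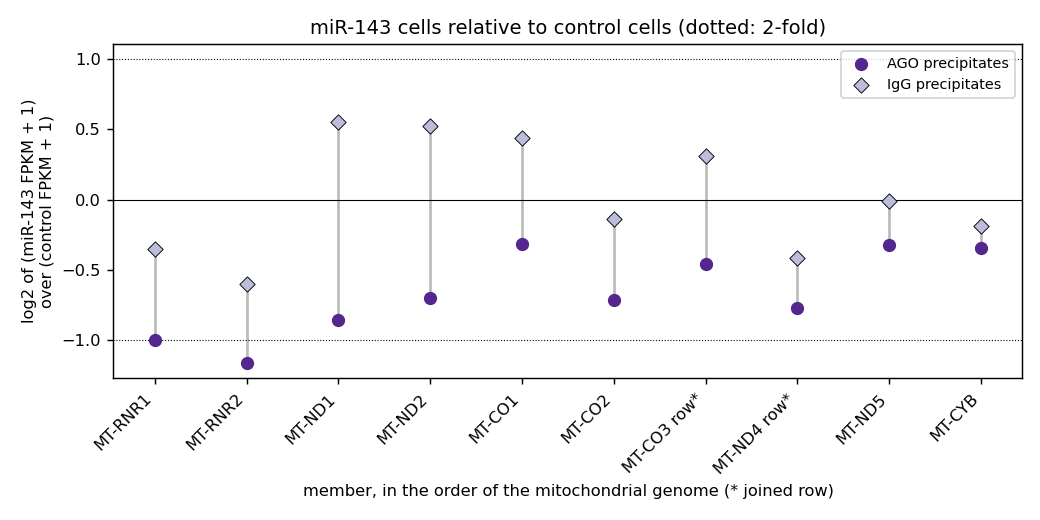
Log2 of (miR-143 FPKM + 1) over (control FPKM + 1) for each member in the AGO precipitates (dark circles) and in the IgG precipitates (pale diamonds), joined by a grey line, with 2-fold as dotted lines. All circles lie below 0, from −1.16 for MT-RNR2 to −0.32 for MT-CO1, and the diamonds lie on both sides of 0.

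Rows with a match to the miR-143 seed were read against the others. MT-RNR2 (the 8mer), MT-ND2, MT-CO2 and the MT-ND4 row (through MT-ND4L) had log2 ratios of −1.16, −0.70, −0.72 and −0.77 between the AGO precipitates, with a median of −0.74. The 6 members without a match had a median of −0.40 and ranged from −0.998 to −0.32, so that both sets were lower with miR-143 and overlapped. Relative to IgG the medians were −0.57 with a match and −0.70 without one, in the opposite order. No member, with or without a match, was higher in miR143_AGO than in control_AGO.

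Of the other mitochondrial genes, MT-ND3 and MT-ND6, both of complex I, have rows of their own. MT-ND3 was at 427 FPKM with IgG and 105 FPKM with AGO in control cells, and at 222 and 95.5 FPKM in the miR-143 population. MT-ND6 is the only mRNA read from the other strand (chrM:14149-14673, minus strand), and it was at 90.5, 7.24, 139.6 and 7.70 FPKM. It was 12.5 times lower in AGO in control cells and 18.1 times lower with miR-143, more than any mRNA member. The 22 tRNA genes, of 59 to 75 bases and in 21 rows, were listed at 0 in all groups.

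Nuclear copies of mitochondrial genes can share reads with the members. Of 196 rows named as such copies, 9 were above 0. The highest were a row of MTATP6P1 and MTATP8P1 with a clone-named transcript, at 14.4 FPKM with IgG and 5.36 FPKM with AGO in control cells, and at 76.2 and 2.10 FPKM in the miR-143 population, MTRNR2L12 at 18.6, 1.05, 21.8 and 0.242 FPKM, and MTND2P28 at 4.11, 1.79, 18.4 and 0.865 FPKM. On the deposited scale these 3 rows were lower in AGO than in IgG in both populations. MTCYBP4, named after its values had been seen, was at 10.3 FPKM in control_AGO and listed at 0 elsewhere. The share of windows of 100 bases that occur unchanged in an annotated copy was 27.9% for MT-CO1, 26.1% for MT-ND2, 10.97% for MT-ND1, 4.38% for MT-CO3 and 2.39% for MT-CO2, and 0 windows were shared for the other members. How the authors' counting placed such reads is not given in the sources used here.

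Subunits of the same complexes that are encoded in the nucleus and translated in the cytosol offered a comparison. Of 30 rows of such genes, 19 were at least 2-fold lower in AGO than in IgG in control cells and 21 with miR-143, and 1 and 3 were higher. Of all rows 36.2% and 33.5% were lower and 34.5% and 26.6% higher. Their median log2 ratios were −1.73 in control cells and −1.37 with miR-143, beside −1.89 and −2.84 for the mitochondrial mRNA rows. In control cells the medians of both sets were thus close, and the nuclear-encoded rows had the wider range (−4.76 to 1.87). COX7C of complex IV was at 124, 10.02, 88.6 and 6.32 FPKM, and COX6C at 28.96, 0.109, 16.6 and 1.73 FPKM. UQCRH of complex III was at 164, 14.7, 304 and 28.2 FPKM, and COX7A2 at 219.98, 26.4, 426 and 32.5 FPKM. Only a row joining COX6A1 with GATC and a clone-named transcript was at least 2-fold higher in AGO in both populations (289.6, 1060.3, 468 and 1383 FPKM).

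The 12 housekeeping mRNAs of the cytosol had medians of −0.56 and −1.01, and 4 and 6 of them were 2-fold lower, beside 36.2% and 33.5% of all rows. Lower in both were a row joining TPT1 with SNORA31 (log2 ratios −2.83 and −3.33), LDHA (−2.65 and −1.75), EEF1A1 (−1.86 and −1.77) and PGK1 (−1.62 and −1.27). RNAs of the nucleus and its particles had medians of −3.84 over 9 rows in control cells and −4.50 over 11 rows with miR-143. Of these rows 7 and 8 were 10-fold lower, beside 4.98% and 3.67% of all rows. Among rows that averaged 50 FPKM or more, 8.65% and 8.42% were. The 8 with miR-143 include RNU6ATAC, named after its values had been seen, at 4904 FPKM in miR143_IgG and listed at 0 in the other groups. It was compared there only through IgG, which fixed its direction. NEAT1, named after its values had been seen, was the exception among the 11 rows and had a log2 ratio of 0.32 with miR-143. Of the others, RPPH1, the RNA of nuclear RNase P, was at 16229, 979, 14123 and 445 FPKM, and RMRP, the RNA of the related RNase MRP, at 50597, 3179, 36070 and 1263 FPKM. The spliceosomal RNAs RNU4-1 and RNU4-2 had log2 ratios of −3.59 and −3.84 in control cells, and of −4.89 and −4.50 with miR-143.

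**Figure D5:**
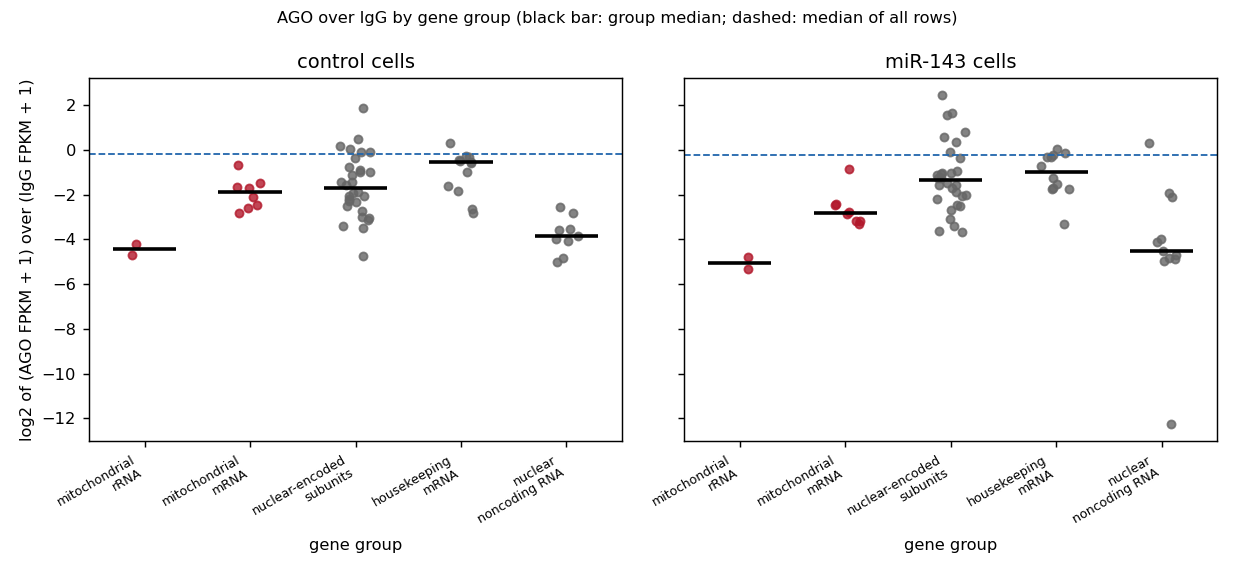
Log2 of (AGO FPKM + 1) over (IgG FPKM + 1) by gene group in control cells (left) and miR-143 cells (right), 1 point per row with 1 FPKM or more in either group compared, with the group median as a black bar and the median of all rows as a dashed line. Mitochondrial mRNAs (medians −1.89 and −2.84) overlap the nuclear-encoded subunits (−1.73 and −1.37), and mitochondrial rRNAs (−4.44 and −5.05) lie among the nuclear noncoding RNAs (−3.84 and −4.50).

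Nuclear genes that serve mitochondrial RNA were read as further background. Of 5 rows of mtDNA transcription genes, 2 reached 1 FPKM in control cells and both were 2-fold higher in AGO. TFB2M was 1 of them, at 4.06 FPKM in control_AGO and listed at 0 in control_IgG. It reached 1 FPKM there only through AGO, which fixed its direction. Of 3 such rows with miR-143, 2 were lower and 0 higher. TFB2M was among the lower, at 4.77 FPKM with IgG and 1.24 FPKM with AGO. POLRMT, the mitochondrial RNA polymerase, was at 12.5 FPKM with IgG and 68.8 FPKM with AGO in control cells, and at 14.6 and 29.8 FPKM in the miR-143 population. Of 15 rows for RNA processing, stability and decay, 7 were 2-fold lower and 5 higher in control cells, and 4 were lower and 1 higher with miR-143. Over all rows 36.2% were lower and 34.5% higher in control cells, and 33.5% and 26.6% with miR-143, so that in control cells this list was near the background. LRPPRC, which stabilises mitochondrial mRNAs, was at 20.6, 9.22, 25.5 and 5.70 FPKM, and SUPV3L1, a helicase of mitochondrial RNA decay, was at 3.61, 43.0, 3.54 and 10.6 FPKM, the only one of these rows 2-fold higher in AGO in both populations. HSD17B10, a part of the mitochondrial RNase P, was at 27.8, 9.39, 42.8 and 10.2 FPKM, and PNPT1, a ribonuclease, was at 10.7 FPKM in control_IgG and listed at 0 in control_AGO, with 2.64 and 0.512 FPKM with miR-143. A row joining REXO2, an exonuclease for short RNAs, with RBM7 and a clone-named transcript was at 21.7, 2.98, 34.8 and 7.20 FPKM. The 15 rows had median log2 ratios of −0.92 and −0.62.

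For rRNA modification and ribosome assembly, 3 of 7 rows compared were 2-fold lower and 4 higher in control cells, and 3 of 8 were lower and 0 higher with miR-143. MTERF4, which takes part in the assembly of the mitochondrial ribosome, was the only one lower in both, at 59.9, 1.15, 11.1 and 0.106 FPKM. Of the translation factors, 2 of 8 rows compared were lower and 1 higher in control cells, and 3 of 10 were lower and 1 higher with miR-143. With so few rows compared, neither list can be set apart from those shares of all rows. MTIF2, an initiation factor, was lower in both at 16.5, 4.26, 16.1 and 4.07 FPKM.

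The rows most like the members over the 4 groups were sought among 662 rows of 1 gene that averaged 50 FPKM or more, by the Euclidean distance of centred log2(FPKM + 1). Nearest to the rRNAs were RN7SL2 (distance 0.170), RN7SL1 (0.254), RPPH1 (0.301), RMRP (0.375) and a row named Metazoa_SRP (0.592), beside a distance of 0.279 of each rRNA from their mean. RN7SL1 and RN7SL2, the RNA of the signal recognition particle in the cytosol, had log2 ratios of AGO over IgG of −4.53 and −4.54 in control cells and −5.10 and −5.03 with miR-143. Nearest to the mean of the mRNA rows were HIST1H2AH (0.208), SF3B5 (0.237), RPL13 (0.284), RPS25 (0.301) and PTMA (0.312), whereas the mRNA members themselves lay 0.259 to 1.55 from it.

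The labels were checked on the same tables. Of K562 markers, GATA1 was at 52.0 to 73.2 FPKM and KLF1 at 41.9 to 289 FPKM over the groups, and a joined row with the gamma globins and HBE1 at 229 to 523 FPKM. KLF1 and TAL1 (4.99 to 30.1 FPKM) were at least 2-fold higher in AGO in both populations, and a joined row with HBZ (32.0 to 99.97 FPKM) was 2-fold lower. Of 6 markers of other cells only EPCAM reached 1 FPKM, at 8.28 FPKM in miR143_IgG and listed at 0 in control_IgG.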

How the data were processed

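RNA immunoprecipitates of K562 cells (12 samples, 4 groups of 3 from the sample titles) had been sequenced paired-end, and per the submitters' processing notes TopHat, Cufflinks and the build hg38 were used, with versions and annotation not given in the sources used here. The authors deposited 4 tables of FPKM, 1 average per gene and group, so that depth is unknown and no test was possible. The planned comparison of replicates was replaced by its planned fallback for averages, without a test. Differences are log2 of (FPKM + 1) over (FPKM + 1), which understate the change of low genes, and were read against all rows of 1 FPKM or more in a group compared. A row listed at 0 in either group passed this filter only through the other, which fixed its direction. The calculation of the ratio was checked on control_IgG values multiplied by known factors. That check covers the arithmetic only and not the scale of the deposited FPKM. Joined rows (2140) were kept. GENCODE 29 gave coordinates, lengths (the median over a gene's transcripts) and sequences by symbol. Members, lists and thresholds (2-fold, 10-fold) were chosen with earlier results of these data known. The genes named are the members, the other mitochondrial mRNAs, the 3 highest nuclear copies, the 5 nearest rows and list members 2-fold different in both populations in 1 direction (at most 4 per list). POLRMT, TFB2M, MIR143, MTCYBP4, NEAT1, RNU6ATAC, the COX6A1 row, SUPV3L1 and the markers GATA1, EPCAM and the globin row were picked with values in view. Python 3.11.15, pandas 2.3.3 and numpy 2.4.6 were used. The result of 1 marker is not reported here.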

Additional observations from a re-analysis of the deposited data

Results flagged for a closer look

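For 4 members the ratio of miR-143 over control cells pointed one way in the AGO averages and the other way in the IgG averages. The log2 ratio in IgG exceeded that in AGO by 1.41 for MT-ND1 (0.55 against −0.86), 1.22 for MT-ND2 (0.53 against −0.70), 0.77 for the MT-CO3 row (0.31 against −0.46) and 0.75 for MT-CO1 (0.44 against −0.32). With 1 average per group the difference was not tested, and it is unknown whether every sample moved this way. These 4 rows are among the 5 members that share windows of 100 bases with a nuclear copy. The copy rows MTND2P28 (windows shared with MT-ND2) and MTATP6P1 (with MT-ATP6 of the MT-CO3 row) were 4.11 and 14.4 FPKM in control_IgG. In miR143_IgG they were 18.4 and 76.2 FPKM. The copies that share windows with MT-ND1 (MTND1P23), MT-CO1 (MTCO1P12) and MT-CO3 itself (MTCO3P12) are not among the 9 copy rows above 0. The part of copies in the difference was not tested.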

How the results depend on the processing

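No paired analysis was possible because each table gives only a group average without its replicates, and the alternatives that leave out a replicate were not run for the same reason. With the same total of FPKM times length, a scaling chosen after seeing the data, AGO over IgG in control cells reversed for MT-ND1 (0.64), MT-ND2 (0.0022), MT-CO1 (0.49) and the MT-CO3 row (0.46). Members 2-fold lower in AGO then numbered 2 instead of 9 in control cells and 5 instead of 9 with miR-143, and 1 was 2-fold higher in each (MT-CYB at 1.46 and 1.22). Under pseudocounts of 0.1 and none, the 3 other scalings, summing of rows with the same name, leaving out joined rows and other filters, 0 of the members' values past 2-fold reversed. With the same median of all groups, 3 members instead of 1 were 2-fold lower in miR143_AGO than in control_AGO (MT-RNR1 at −1.18 and MT-ND1 at −1.04 joined MT-RNR2). MT-ND1 in control cells was within 2-fold of IgG with the same upper quartile (−0.99) or the same sum of nuclear coding rows (−0.97). The share of members depended on the total used. It was 36.5%, 8.86%, 29.7% and 4.71% (control_IgG, control_AGO, miR143_IgG, miR143_AGO) when weighted by length, and 20.1%, 17.8% and 3.48% for control_IgG, miR143_IgG and miR143_AGO without snRNA, cytosolic rRNA and MIR143 in the total. The ratio of rRNA to mRNA was 4.73 to 43.4 over the groups when weighted by length and 4.82 to 43.6 with the other mitochondrial mRNAs and nuclear copies, against 5.196 to 47.0. With a mean of at least 5 FPKM, 38.7% and 35.1% of rows were 2-fold lower in AGO in control and miR-143 cells. Depth is unknown, and error of the averages cannot be given.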
